A study of Mus musculus with 7 samples.

Results

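The genes described here make and remodel phosphatidylcholine and phosphatidylethanolamine, the main phospholipids of liver membranes, bile and very low density lipoprotein (VLDL). There were 10 members of the 37620 genes in the count table: Chka, Chkb, Etnk1, Etnk2, Pcyt1a, Pcyt2, Chpt1, Cept1, Pemt and Lpcat3. They were chosen by name, with earlier results of these data known, and each symbol matched 1 Ensembl identifier. RNA was sequenced from flash-frozen whole liver of C57BL/6 mice, all fed a Western diet for 30 weeks. By label, 4 libraries were H-TBA, where total bile acids were high, and 3 were L-TBA, where they were low. The labels give no other treatment or genetic change, no age, and no level of bile acids that divides the groups. They also do not say that each library is a separate animal, so p-values measure the spread between libraries, which may in part be technical.

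In the liver, choline and ethanolamine are first phosphorylated, then joined to CDP, and then passed to diacylglycerol, a route known as the Kennedy pathway. Hepatocytes have a further source, because the enzyme PEMT methylates phosphatidylethanolamine into phosphatidylcholine. Phosphatidylcholine then leaves the cell in bile, where it shields the ducts from bile salts, and on the surface of VLDL. The comparison asked whether transcripts for this supply differed between livers of mice with high and low bile acids.

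The libraries held 9996990 to 11488951 counts in H-TBA and 10973114 to 12152613 in L-TBA. Each member had between 593 and 4838 counts in every library, so all 10 passed the filter on low counts without help from one group. On the first principal component, with 64.7% of the variance, H-TBA 2 to 4 lay between -43.5 and -34.6, H-TBA 1 at -10.7 and the L-TBA libraries between 36.8 and 45.2. The hepatocyte gene Alb stood at 35078 to 39611 CPM (library-scaled counts, with TMM factors) in H-TBA and 37838 to 45911 CPM in L-TBA. Tests covered 15249 genes, with 2003 calls upward in H-TBA livers and 1635 downward, so that 55.1% of the calls were higher. With libraries scaled by their totals that share was 78.9%, and the median log2 fold change of all genes was 0.16, against 0.00 with TMM.

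Among the 10 members, Etnk2 rose in H-TBA livers, and Chpt1, Pcyt1a, Lpcat3 and Chkb fell. A call means an adjusted p under 0.05 over all genes by the quasi-likelihood test of edgeR. The share of all tested genes called was 23.9% in either direction, 13.1% higher and 10.7% lower, against 5, 1 and 4 of the 10 members. The groups did not overlap for 7 members, 1 higher and 6 lower, while 33.5% of all tested genes had groups without overlap, 17.2% higher and 16.3% lower. The median log2 fold change was -0.22 over the members and 0.00 over all tested genes. Without H-TBA 1, the library nearest to L-TBA, 1 member was higher and 5 were lower. Without H-TBA 2 or 3 there were 3 lower members, and without H-TBA 4 or any 1 L-TBA library there were 2, with Etnk2 higher each time. In whole tissue, fewer cells of a type and less RNA per cell cannot be told apart, and this holds for every result here.

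The gene starts of the 3 called members with the smallest adjusted p are shown because these members moved in both directions: Etnk2 up, Pcyt1a and Chpt1 down. Each sequence is the 250 bases before the annotated start, from RefSeq on GRCm38.p6, at chr1:133363322-133363571 on the plus strand for Etnk2, chr16:32430671-32430920 on the plus strand for the first of 3 annotated starts of Pcyt1a, and chr10:88503971-88504220 on the minus strand for Chpt1. Capitals mark matches on either strand to GGGCGG (the GC box) and CCAAT.
Etnk2: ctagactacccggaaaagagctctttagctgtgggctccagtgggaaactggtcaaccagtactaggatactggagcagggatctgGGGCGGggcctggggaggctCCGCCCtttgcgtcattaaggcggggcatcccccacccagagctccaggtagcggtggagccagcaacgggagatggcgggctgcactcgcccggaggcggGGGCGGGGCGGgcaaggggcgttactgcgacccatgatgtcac
Pcyt1a: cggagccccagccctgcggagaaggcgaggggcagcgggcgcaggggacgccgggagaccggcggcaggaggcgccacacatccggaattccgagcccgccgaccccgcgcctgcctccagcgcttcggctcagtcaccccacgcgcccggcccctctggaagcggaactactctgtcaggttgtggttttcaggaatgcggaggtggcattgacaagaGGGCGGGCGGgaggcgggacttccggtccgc
Chpt1: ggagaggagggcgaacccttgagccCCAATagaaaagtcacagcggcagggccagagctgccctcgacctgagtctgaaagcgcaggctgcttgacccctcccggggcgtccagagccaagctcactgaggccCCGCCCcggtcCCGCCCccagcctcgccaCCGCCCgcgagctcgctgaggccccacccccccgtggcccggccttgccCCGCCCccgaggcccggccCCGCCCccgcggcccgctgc
GGGCGG occurred 4 times in the Etnk2 window, the nearest beginning 38 bases before the start and sharing a base with the next. It occurred 2 times in the Pcyt1a window and 5 times in that of Chpt1, which also held 1 CCAAT. Of the 14 annotated starts of 9 members (Pcyt2 had no entry), 10 held GGGCGG and 5 held CCAAT. Some windows of Pcyt1a and of Cept1 overlap, so the same site can count for more than 1 start. In all 32851 promoter windows of this length, 32.7% held GGGCGG and 33.8% held CCAAT, with no matching for base composition. AGGTCA, a core site of nuclear receptors, and the E-box CACGTG were searched on both strands and were in none of the 14 windows; 14.0% and 6.02% of all windows held them. The windows shown for Etnk2, which rose, and for Pcyt1a and Chpt1, which fell, thus all held the GC box. The window of start 3 of Pcyt1a held 0. A match is only a description of the letters.

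Of the enzymes that phosphorylate ethanolamine, Etnk2 rose and Etnk1 did not pass. Etnk2, the ethanolamine kinase abundant in liver (ENSMUSG00000070644), stood at 436, 441, 312 and 378 CPM in H-TBA 1 to 4, against 203, 192 and 229 CPM in L-TBA 1 to 3. Every H-TBA library lay above every L-TBA library. The log2 fold change was 0.91 ± 0.13 (SE), a fold of 1.88, with an edgeR adjusted p of 0.000833. That call held under every alternative setting that was run, with adjusted p from 1.22e-09 to 0.00572, and 0.0172 with the replicate number as a block. Etnk1, the ethanolamine kinase found in most tissues (ENSMUSG00000030275), had 94.0 to 107 CPM in H-TBA and 109.6 to 122 CPM in L-TBA. Its groups did not overlap, and it did not pass the edgeR test (log2 fold change -0.20 ± 0.08, adjusted p = 0.108). Etnk1 passed only with an offset for gene length (adjusted p = 0.0443, in a range from 0.0443 to 0.71).

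Of the choline kinases, which start the choline branch, Chkb passed by a small margin and Chka did not pass. Chkb, the beta isoform (ENSMUSG00000022617), stood at 69.5, 61.0, 76.4 and 67.5 CPM in H-TBA 1 to 4, against 81.3, 81.4 and 85.3 CPM in L-TBA 1 to 3. All H-TBA values were lower than all L-TBA values, by a small margin. Chkb fell by 0.27 ± 0.09 on the log2 scale (edgeR adjusted p = 0.0446). The call was lost without H-TBA 2 or 4 and without L-TBA 1, 2 or 3 (adjusted p = 0.105, 0.0998, 0.0943, 0.0942 and 0.131, over all settings 0.0222 to 0.453), and its log2 fold change was -0.11 with library totals.

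Chka, the alpha isoform (ENSMUSG00000024843), varied more within the groups than between them. It had 87.6, 91.6, 141 and 135 CPM in H-TBA 1 to 4 and 73.0, 121 and 120.3 CPM in L-TBA 1 to 3. Both groups thus held low and high libraries: H-TBA 1, H-TBA 2 and L-TBA 1 were low and the other 4 were high. Its log2 fold change was 0.12 ± 0.21 (edgeR adjusted p = 0.717), and -0.088 without L-TBA 1 (adjusted p from 0.367 to 0.997 over the alternatives).

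**Figure D1:**
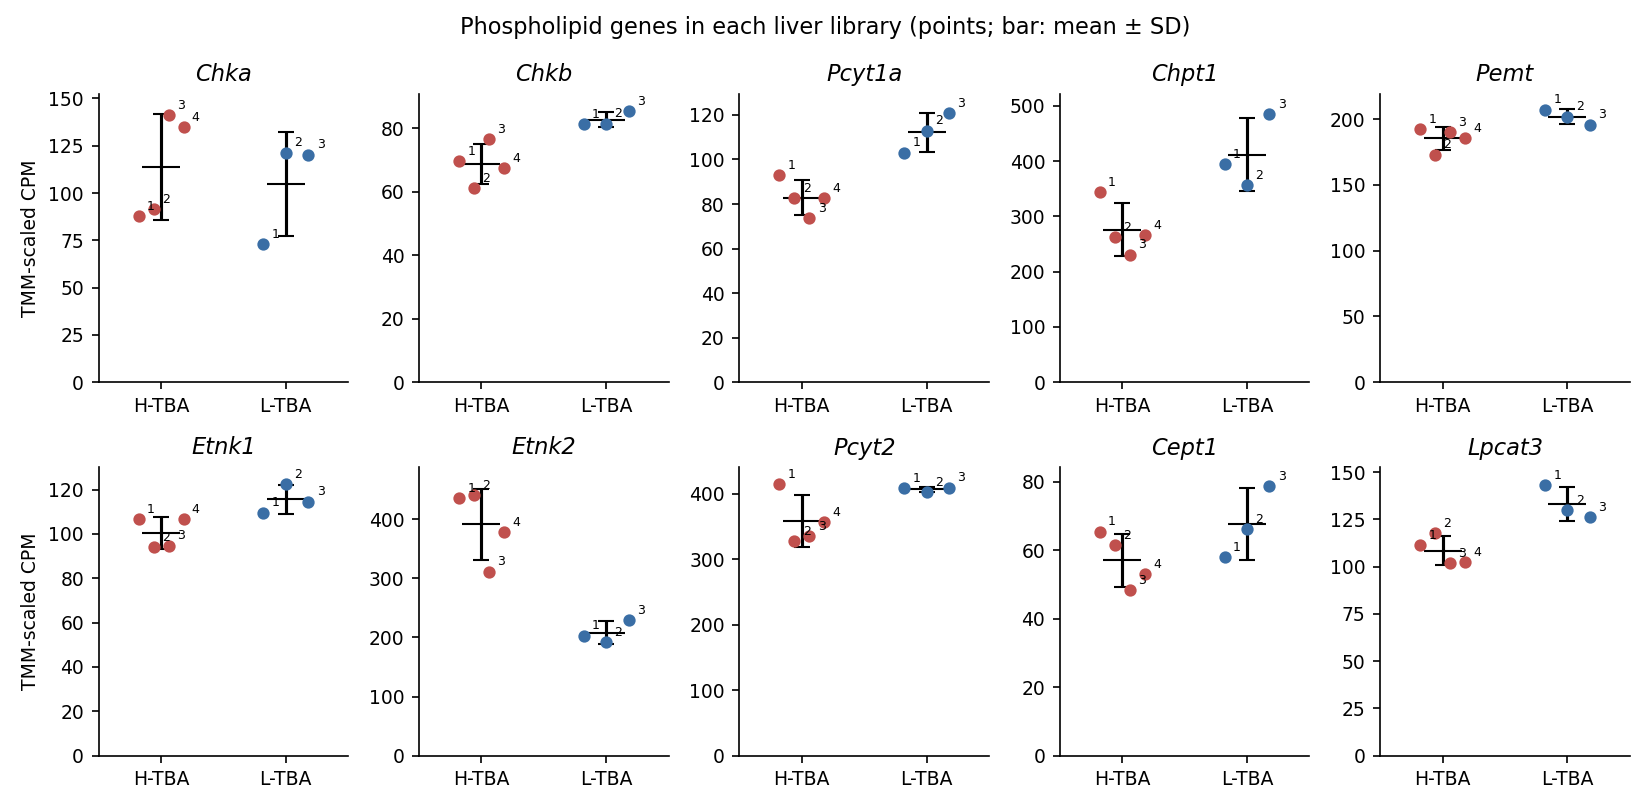
TMM-scaled CPM (vertical axis, starting at 0) of the 10 phospholipid genes in each library, with the H-TBA libraries on the left and the L-TBA libraries on the right of each panel. Points are libraries labelled by replicate number and bars are mean ± SD; Etnk2 has all 4 H-TBA points at 312 CPM or more and all 3 L-TBA points at 229 CPM or less, while the Chka points of the groups mix.

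At the step that makes the CDP bases, the choline enzyme fell and the ethanolamine enzyme did not pass. Pcyt1a, which makes CDP-choline and limits the rate of the choline branch (ENSMUSG00000005615), stood at 92.9, 82.6, 73.5 and 82.6 CPM in H-TBA 1 to 4, against 103, 113 and 121 CPM in L-TBA 1 to 3. The groups did not overlap. Pcyt1a fell by 0.44 ± 0.10 on the log2 scale, a fold of 0.738 (edgeR adjusted p = 0.00705), and stayed below the threshold without any 1 library (adjusted p from 0.00183 to 0.0342) and with library totals (0.0214). Pcyt2, which makes CDP-ethanolamine (ENSMUSG00000025137), had 415, 328, 336 and 357 CPM in H-TBA 1 to 4 and 409, 403 and 409.7 CPM in L-TBA 1 to 3. H-TBA 1 lay above all L-TBA libraries and the other H-TBA libraries lay below them. Its log2 fold change was -0.18 ± 0.10 (adjusted p = 0.227), and -0.26 without H-TBA 1 (adjusted p = 0.0417, in a range from 0.0417 to 0.824).

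The last step of the pathway had the member with the furthest fall. Chpt1, the phosphotransferase that joins phosphocholine to diacylglycerol (ENSMUSG00000060002), stood at 343, 262, 231 and 266 CPM in H-TBA 1 to 4, against 395, 356 and 485 CPM in L-TBA 1 to 3. H-TBA 1 came close to L-TBA 2, and no library crossed over. Chpt1 fell by 0.58 ± 0.14 on the log2 scale, a fold of 0.669 (edgeR adjusted p = 0.0141). The call was lost without L-TBA 3 (log2 fold change -0.45, adjusted p = 0.0654, in a range from 0.000946 to 0.0654). Cept1, which accepts both CDP-choline and CDP-ethanolamine (ENSMUSG00000040774), had 48.2 to 65.4 CPM in H-TBA and 58.0 to 78.7 CPM in L-TBA. Its groups overlapped, and its log2 fold change of -0.25 ± 0.13 did not pass (edgeR adjusted p = 0.182). It was -0.13 without L-TBA 3 and -0.094 with library totals.

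Pemt, the methyltransferase of the second source of phosphatidylcholine (ENSMUSG00000000301), had similar levels in both groups. It stood at 192, 173, 190.1 and 185 CPM in H-TBA 1 to 4 and 207, 202 and 196 CPM in L-TBA 1 to 3. The groups lay apart by a few CPM. The log2 fold change of -0.12 ± 0.08 did not pass (edgeR adjusted p = 0.306), and with library totals it was 0.034 (range of adjusted p 0.179 to 0.797).

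Lpcat3, the acyltransferase that puts polyunsaturated chains into phosphatidylcholine (ENSMUSG00000004270), fell. It stood at 111, 118, 102 and 102 CPM in H-TBA 1 to 4, against 143, 129.8 and 126 CPM in L-TBA 1 to 3. All H-TBA libraries were lower than all L-TBA libraries. The fall was 0.30 ± 0.09 on the log2 scale (edgeR adjusted p = 0.0285). It was lost without H-TBA 3 or 4 and without L-TBA 1 or 2 (edgeR adjusted p = 0.0661, 0.0837, 0.126 and 0.0619, over all settings 0.0113 to 0.216), and with library totals (-0.15).

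**Figure D2:**
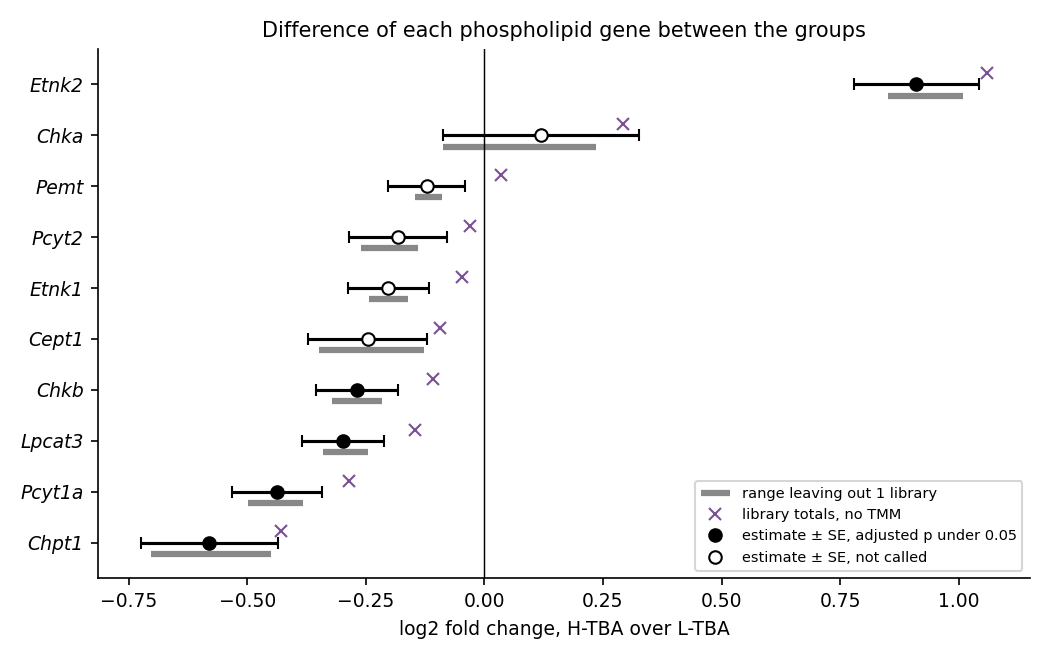
Log2 fold change of H-TBA over L-TBA (horizontal axis) for the 10 phospholipid genes. Circles with bars are the edgeR estimate ± SE, filled where the adjusted p was under 0.05; grey bars span the estimates with 1 library left out and crosses are estimates with library totals. Etnk2 stands alone on the right at 0.91, Chpt1, Pcyt1a, Lpcat3 and Chkb are filled on the left, and the Chka bar spans 0.

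Pcyt1a, Chpt1, Pcyt2, Cept1 and Pemt had their highest H-TBA value in H-TBA 1. Transcript levels were set against each other per kilobase of exon, from the union of GENCODE exons, which understates genes with long untranslated ends. In H-TBA the order began with Pemt (88.0 ± 4.12 CPM per kb, SD, n = 4), Etnk2 (85.8 ± 13.2) and Pcyt2 (82.6 ± 9.12), whose ranges overlapped. In L-TBA it began with Pemt (95.8 ± 2.69 CPM per kb, SD, n = 3) and Pcyt2 (93.7 ± 0.864), with overlapping ranges, followed by Chpt1 (49.5 ± 7.91) and Etnk2 (45.6 ± 4.18). Etnk2 was therefore at rank 2 of the members per kilobase in H-TBA and at rank 4 in L-TBA, where its range overlapped those of Chpt1 above it and Lpcat3 below it. Lpcat3 and Chpt1 followed at 33.1 CPM per kb each in H-TBA, and Lpcat3 came next at 40.7 CPM per kb in L-TBA. Chkb, Cept1, Pcyt1a, Chka and Etnk1 closed the order in both groups, from 22.4 to 7.10 CPM per kb in H-TBA and from 27.0 to 8.17 CPM per kb in L-TBA. Of these neighbours, Chkb and Cept1, Pcyt1a and Chka, and Chka and Etnk1 had overlapping ranges in H-TBA, and only Chka and Etnk1 did in L-TBA.

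The balance between paired enzymes, of one step, of parallel steps or, for Pemt and Pcyt1a, of the 2 sources of phosphatidylcholine, was taken as the ratio of their counts within a library, in which library scaling cancels. Etnk2 had 4.09, 4.69, 3.29 and 3.55 counts per Etnk1 count in H-TBA 1 to 4, against 1.86, 1.57 and 2.003 in L-TBA 1 to 3. The groups lay well apart, with a difference of 1.10 in the mean log2 ratio. Chpt1 had 4.26 to 5.25 counts per Cept1 count in H-TBA and 5.39 to 6.81 in L-TBA, a difference of -0.34. Pemt had 2.07 to 2.59 counts per Pcyt1a count in H-TBA and 1.62 to 2.01 in L-TBA, a difference of 0.32. For these 3 of the 5 pairs compared the groups did not overlap. Each had p = 0.0571 by a two-sided exact permutation test, the smallest that 4 against 3 libraries allow, and 0.0952 adjusted over the 5 pairs, so no ratio could pass 0.05. Pcyt1a to Pcyt2 and Chka to Chkb overlapped between groups, at differences of -0.25 and 0.40 (exact permutation p = 0.114 and 0.229).

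**Figure D3:**
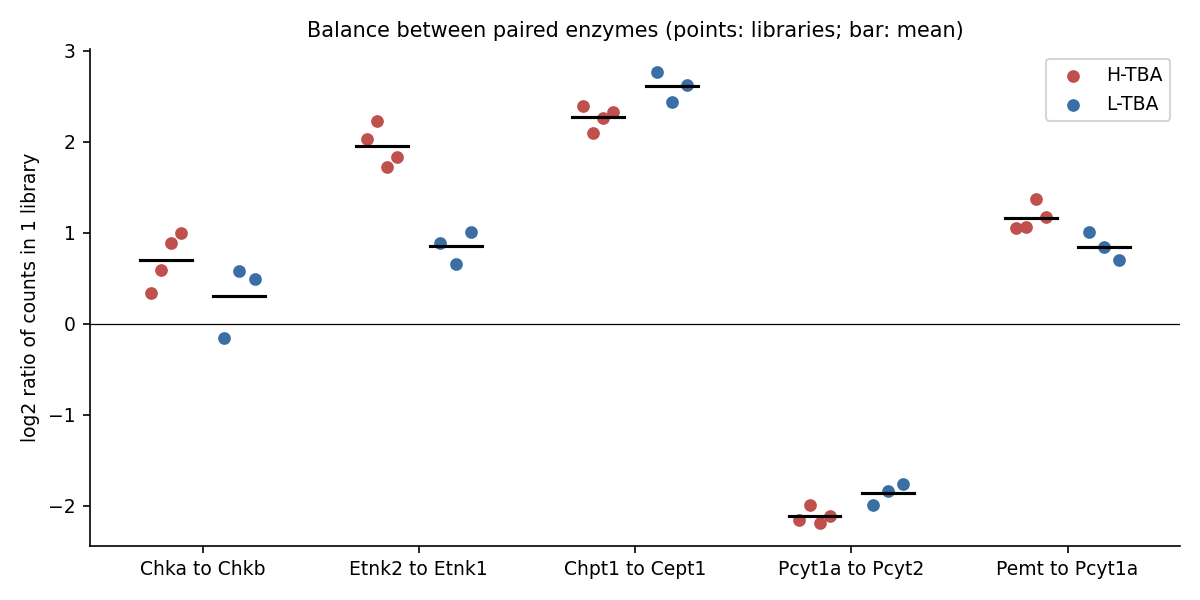
Log2 ratio of the counts of paired enzymes within 1 library (vertical axis) for 5 pairs, H-TBA left and L-TBA right in each pair; points are libraries and bars are means. The Etnk2 to Etnk1 points lie 1.10 apart in the mean, and the Chka to Chkb points of the groups overlap.

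Beyond the 10 members, 90 of 93 genes in 8 lists of the wider pathway were tested, and 15 rose and 11 fell. Of those that fell, 10 are left without Phospho1, which reached the tests only through its L-TBA counts. Among those that rose, Mboat1 reached the tests only with its H-TBA counts. The lists, too, were chosen with earlier results of these data known. The background is the 13.1% higher and 10.7% lower given above. Library totals gave 26 higher and 7 lower. The lists with the highest medians were choline and ethanolamine supply at 0.39 and other lysophospholipid acyltransferases at 0.24, against 0.00 for all tested genes. The medians were not tested. That of the supply list is the value of Gpcpd1, which did not pass (edgeR adjusted p = 0.321) and ran from 0.16 to 0.56 over the alternatives. Phospholipases and phosphatidylcholine export and transfer both had a median of -0.12.

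In choline and ethanolamine supply, 4 of 9 genes rose and 1 fell. Etnppl, the lyase that breaks down phosphoethanolamine, the product of the ethanolamine kinases, stood at 189, 182, 108 and 127 CPM in H-TBA 1 to 4, against 29.5, 16.6 and 49.9 CPM in L-TBA 1 to 3. All H-TBA libraries were higher than all L-TBA libraries, and Etnppl rose by 2.25 ± 0.32 on the log2 scale (edgeR adjusted p = 0.000722). The choline transporter-like genes Slc44a2 and Slc44a4 had log2 fold changes of 1.052 ± 0.14 and 2.43 ± 0.28 and rose to 36.5 ± 6.10 and 6.77 ± 1.63 CPM (SD, n = 4), against 17.6 ± 1.51 and 1.24 ± 0.349 CPM in L-TBA (SD, n = 3). Slc44a1, the choline transporter found in most tissues, had 65.8 ± 2.87 CPM in H-TBA and 65.9 ± 0.788 CPM in L-TBA and did not pass (adjusted p = 0.986). Gdpd1 was the other gene that rose. Leaving out L-TBA 1 ended its call. The gene that fell was Phospho1, a phosphatase of phosphocholine and phosphoethanolamine, with 1 to 3 counts in each H-TBA library and 11 to 18 in each L-TBA library. It passed the filter on low counts only through the L-TBA libraries, where it is high, so its call is no independent support. Without Phospho1, 0 of the 8 other genes fell. Phospho1 was chosen after its values were seen, and its call could not be made without H-TBA 4 or L-TBA 2, where it missed the filter.

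Methyl supply, on which PEMT depends, had 1 of 13 genes higher and 0 lower by edgeR. At an unadjusted p under 0.05 edgeR gave 2 higher and 1 lower. By adjusted p, limma-voom called 2 higher and 1 lower, and DESeq2 2 higher and 0 lower. With library totals 4 were higher, without H-TBA 3 the count was 2, and without H-TBA 1 there was 1 lower. Gnmt, which spends S-adenosylmethionine on glycine, rose by 0.79 ± 0.17 to 1199 ± 184 CPM in H-TBA, against 695 ± 164 CPM in L-TBA (edgeR adjusted p = 0.0063). Mat1a, the hepatic synthetase of S-adenosylmethionine, had 4590.1 to 5867 CPM in H-TBA and 3833 to 4524 CPM in L-TBA. Its groups did not overlap, and its log2 fold change of 0.35 ± 0.12 missed the threshold at 0.0642, adjusted. Leaving out H-TBA 3 brought it to 0.0367 (alternatives 0.00219 to 0.21). With all libraries Mat1a passed by DESeq2 (adjusted p = 0.0109) and limma-voom (0.0319). By edgeR it passed with a stricter filter (0.0486) and with library totals (0.00219), so its call depends on the test and the settings.

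Among other Kennedy pathway and lipin genes, 2 of 8 rose and 1 fell. Plpp1 and Plpp3, phosphatases of lipid phosphates, moved in opposite directions, at 0.88 ± 0.19 and -0.52 ± 0.13. Pcyt1b, the beta isoform of Pcyt1a's enzyme, passed at 0.96 ± 0.32 (edgeR adjusted p = 0.0498) with overlapping groups, 3.14 ± 1.02 CPM in H-TBA and 1.62 ± 0.365 CPM in L-TBA. Its call was lost without any 1 library except H-TBA 1 (adjusted p from 0.00457 to 0.161).

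Other lysophospholipid acyltransferases had 3 of 12 genes higher and 1 lower (5 higher without H-TBA 1 and with library totals). Lpcat4 and Mboat1 rose by 2.21 ± 0.35 and 2.28 ± 0.39 at low levels, 9.28 ± 3.86 and 9.59 ± 3.29 CPM in H-TBA and 2.02 ± 0.362 and 1.96 ± 1.27 CPM in L-TBA. Mboat1 had 39, 10 and 16 counts in L-TBA 1 to 3, and the 10 fell short of the filter for a library of that size. It thus passed the filter on low counts only with the H-TBA libraries, where it is high, and its call is no independent support. Lpgat1 fell by 0.47 ± 0.10, to 243 ± 28.0 CPM in H-TBA, against 337 ± 7.74 CPM in L-TBA. Agpat4 was the other gene that rose, so without Mboat1 only Lpcat4 and Agpat4 are left. Of 11 genes for other phospholipid classes, 0 rose and 1 fell by edgeR. At an unadjusted p under 0.05 there were 3 higher, and 2 were called by limma-voom, without H-TBA 1 or with library totals, and 0 by DESeq2. Ptdss1, which makes phosphatidylserine from phosphatidylcholine, fell by 0.34 ± 0.08. With library totals the call of Ptdss1 was lost (adjusted p = 0.162, the upper end of a range from 0.00407).

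Of 15 phospholipases, 3 rose and 1 fell. Pld1, which splits phosphatidylcholine into phosphatidic acid and choline, rose by 0.95 ± 0.15 to 31.2 ± 5.49 CPM in H-TBA, against 16.2 ± 2.19 CPM in L-TBA. Its paralog Pld2 passed at 0.57 ± 0.16 and Plaat3 at 0.49 ± 0.15. The Pld2 call was lost without H-TBA 3 or 4 or L-TBA 1 or 3 (adjusted p up to 0.106), and that of Plaat3 without any 1 library except H-TBA 1 (up to 0.129). The gene that fell, Pla2g6, lay at the threshold (edgeR adjusted p = 0.04995) and was lost without H-TBA 2, 3 or 4 or L-TBA 1 or 2. Without H-TBA 1 the list had 3 lower genes.

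For export and transfer of phosphatidylcholine, 4 of 11 genes fell and 0 rose by edgeR (0 higher also at an unadjusted p under 0.05, by DESeq2 and by limma-voom). With library totals 1 was higher and 2 were lower. Pltp, the plasma phospholipid transfer protein, stood at 52.2, 52.5, 52.1 and 65.4 CPM in H-TBA 1 to 4, against 85.9, 89.9 and 108 CPM in L-TBA 1 to 3. It fell by 0.77 ± 0.11 on the log2 scale (edgeR adjusted p = 0.000772). The hepatic lipase gene Lipc fell by 0.58 ± 0.12, the phosphatidylcholine transfer protein gene Pctp by 0.44 ± 0.12 and Mttp, needed to load VLDL, by 0.36 ± 0.11. The calls of Pctp and Mttp were not steady: Pctp lost it without H-TBA 4 or L-TBA 1 or 3 (adjusted p up to 0.0765), and Mttp without any 1 library except H-TBA 1 (up to 0.108). Abcb4, the canalicular flippase that delivers phosphatidylcholine to bile, had 526, 415, 431 and 438 CPM in H-TBA 1 to 4 and 492, 499.6 and 537 CPM in L-TBA 1 to 3. H-TBA 1 lay within the L-TBA range, and Abcb4 did not pass (log2 fold change -0.17 ± 0.11, adjusted p = 0.27).

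Of 11 regulators of these genes, 2 rose and 2 fell. Ppara, the fatty acid receptor, fell by 1.09 ± 0.16 and the FXR gene Nr1h4, a sensor of bile acids, by 0.71 ± 0.14. Ppard rose by 0.67 ± 0.16. Nr1h2, which encodes LXR-beta, was the other gene that rose, and its call was lost without H-TBA 1, 3 or 4 or L-TBA 1 or 3. Nr1h3, which encodes LXR-alpha, a known activator of Lpcat3, had 65.0 to 88.2 CPM in H-TBA and 84.1 to 91.4 CPM in L-TBA and did not pass (log2 fold change -0.19 ± 0.10, adjusted p = 0.209).

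**Figure D4:**
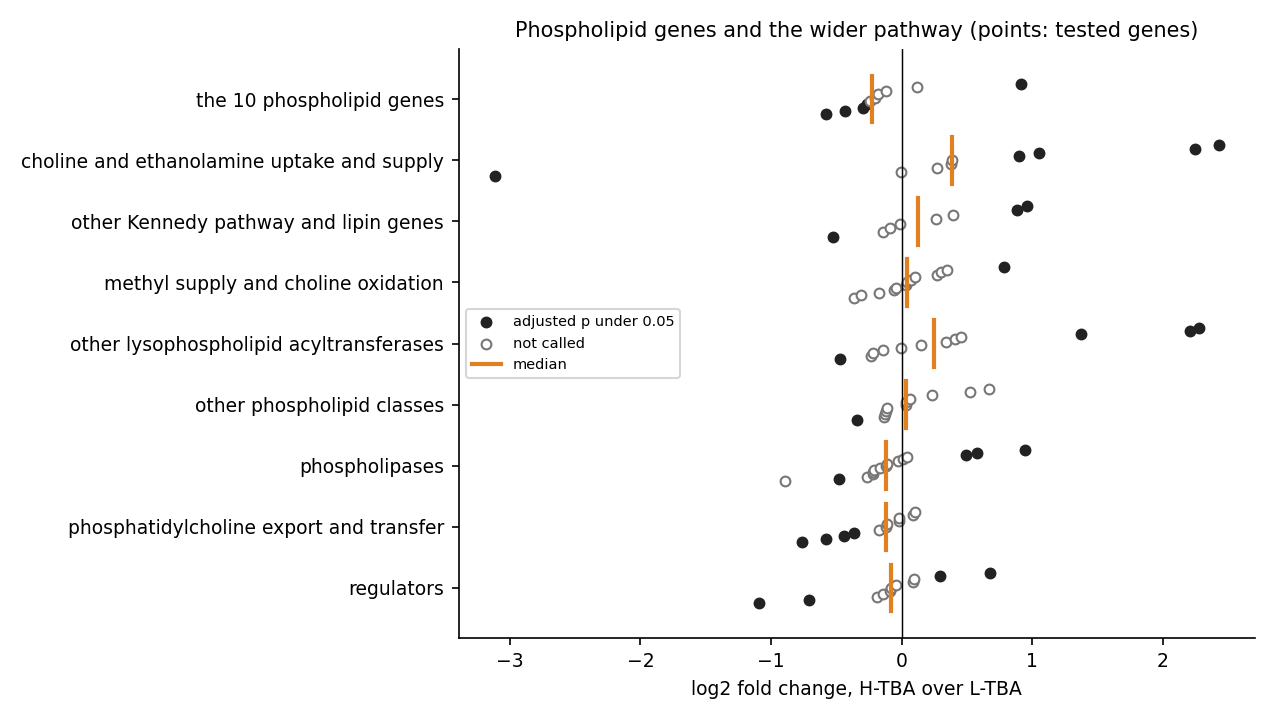
Log2 fold change of H-TBA over L-TBA (horizontal axis) of each tested gene in the 10 phospholipid genes and 8 lists of the wider pathway. Points are genes, filled where the edgeR adjusted p was under 0.05, and orange lines are medians; the supply list has its median at 0.39 and the 10 genes at -0.22.

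Some lists of cell type and lobule zone markers differed between the groups, and their part in the results above was not tested. Among all tested genes 13.1% were called higher and 10.7% lower. Endothelial, stellate cell and hepatocyte markers had calls in both directions, and lymphocyte markers had 0. All 10 bile duct markers rose, with summed levels of 992 to 1904 CPM in H-TBA and 466 to 734 CPM in L-TBA. Of 8 periportal markers 6 rose (8460.4 to 11146 CPM summed in H-TBA, 4337 to 6184 in L-TBA). For 1 other periportal marker, which was not called, all H-TBA libraries lay below all L-TBA libraries. Of 7 pericentral markers 4 fell (3286 to 5762 CPM in H-TBA, 9339.8 to 10625 in L-TBA). Macrophage markers had 3 of 8 lower, 5 without L-TBA 2 and 2 without L-TBA 3 (237 to 327 CPM in H-TBA, 434 to 683 in L-TBA). Endothelial markers had 2 of 8 higher and 3 lower, with 4 higher without H-TBA 1 (120.3 to 154 CPM in H-TBA, 151 to 176 in L-TBA). Stellate cell and fibroblast markers had 3 of 8 higher and 1 lower (771 to 862 CPM in H-TBA, 522 to 954 in L-TBA). Of these, 5 were higher without L-TBA 1 and 2 without L-TBA 2 or L-TBA 3. Hepatocyte markers had 1 of 8 higher and 2 lower, with 0 lower without L-TBA 1 and 1 lower without H-TBA 2, 3 or 4 or L-TBA 2 (58293 to 65980.2 CPM in H-TBA, 64254 to 72659 in L-TBA). Of 7 lymphocyte markers tested 0 passed by edgeR, DESeq2 or limma-voom, with 1 lower at an unadjusted p under 0.05 and 1 called lower without L-TBA 1 (11.02 to 19.2 CPM summed in H-TBA, 13.1 to 35.3 in L-TBA). No listed marker with a count row was at 0 in all libraries.

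By distance between centred log2 CPM profiles over the 7 libraries, the genes most like Etnk2 were Gsta1 (0.23), Ncoa7 (0.24) and Arg1 (0.30). Gsta1 has near-identical relatives that may share its counts. The genes most like Pcyt1a, the member with the smallest adjusted p among those that fell, were Syap1 (0.06), Acp5 (0.11) and Bcar3 (0.11). Some members share exon bases with other genes, and without a stated strand setting such reads cannot be told apart. Cept1 overlapped Dennd2d, which had 133 to 170 counts in H-TBA and 167 to 209 in L-TBA, and Lpcat3 overlapped Emg1, with 378 to 479 counts in H-TBA and 341 to 413 in L-TBA. Pcyt1a overlapped Slc51a, listed at 0 in every library. Chkb shared 1552 exon bases on its own strand with Gm44502, which had no count row. For that overlap a strand setting would not tell reads apart.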

How the data were processed

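For 4 H-TBA and 3 L-TBA liver libraries the authors deposited a table of raw counts by Ensembl gene, in whole numbers without normalization. Per the submitters' processing notes, CASAVA, TopHat2 2.0.11, DESeq2 1.18.1 and build mm9 were used; for the counting tool, strand setting and annotation, the entry is: not given in the sources used here. GENCODE M21 and its identifiers gave symbols for 32897 of 37620 genes and exon lengths, and no mm9 coordinates are given.

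Genes were filtered with filterByExpr (minimum count 10, minimum total 15), scaled by TMM and tested with edgeR 4.0.16 in R 4.3.3 (quasi-likelihood, group as the only term, Benjamini-Hochberg over 15249 genes). SE came from the fold change and F statistic. Levels are TMM-scaled CPM, mean ± SD. The test was tested on simulated counts of the 15249 genes, of which 200 were changed, by 2-fold or 4-fold. There H-TBA against L-TBA recovered 78.0% of 2-fold and 96.0% of 4-fold changes, with 7.45% false calls. Far more genes were called in the data, and changes below 2-fold, such as those of all called members, were not simulated. These rates therefore need not hold for the calls given here. Alternatives were DESeq2 1.42.0, limma-voom (limma 3.58.1), other scalings, filters and fits, leaving out each library, and a length offset chosen after seeing the data. Ranges over alternatives in the results leave out the replicate block. Named genes were the members, up to 3 called genes per list with the smallest adjusted p, Abcb4, Mttp and Mat1a; those added after their values were seen are single counted members of a list and comparison genes. Members and lists were chosen with earlier results of these data known. Libraries of one group differed beyond sampling noise (chi-square at least 5.29 for each degree of freedom). Figures used matplotlib 3.10.9.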

Additional observations from a re-analysis of the deposited data

Results flagged for a closer look

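In the 38 sets of 4 H-TBA values examined (CPM of the members and named genes, and the enzyme ratios), 2 had a library far from the other 3 by Dixon's criterion, which chance gives in about 1 of 20 sets. Pltp stood at 65.4 CPM in H-TBA 4, with the others between 52.1 and 52.5 CPM. Nr1h4 stood at 97.1 CPM in H-TBA 1, with the others between 68.4 and 69.3 CPM.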

How the results depend on the processing

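Etnk2 kept its direction and its call under all 17 alternatives. Library totals gave 3117 higher and 832 lower genes, 2 lower members, and 26 higher and 7 lower genes in the wider lists; log2 fold changes were then -0.11 for Chkb and -0.15 for Lpcat3, which lost their calls, and 0.034 for Pemt, whose sign turned. Filtering turned the Chkb call as well (-0.27 without a filter, adjusted p = 0.0582, and -0.24 with a stricter filter, adjusted p = 0.0613, in a range from 0.0222 to 0.453), and the length offset brought Etnk1 past the threshold (-0.26). Leaving out 1 library gave 1470 to 2429 higher and 1035 to 2123 lower genes. Of the members 1 was higher each time, and 2 to 5 were lower, with 2 without H-TBA 4 or any L-TBA library. The wider lists then had 10 to 19 higher and 8 to 14 lower genes. Log2 fold changes ran from -0.32 to -0.22 for Chkb, -0.70 to -0.45 for Chpt1, -0.34 to -0.24 for Lpcat3, -0.26 to -0.14 for Pcyt2, -0.35 to -0.13 for Cept1 and -0.088 to 0.24 for Chka, whose sign turned without L-TBA 1. The cause of these changes was not tested. The enzyme ratios kept their direction without any 1 library and with 1 count added.

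Replicate numbers are shared between the groups, and no pairing by number was seen. Deviations from the group means correlated at -0.10, -0.06 and -0.06 for numbers 1 to 3, and 0 of 3 pairs correlated best with their own number. With 4 and 3 libraries the deviations within a group depend on each other, so this check cannot exclude a pairing. With the replicate block 1166 genes were higher and 754 lower, and 0 members were lower: Chkb (-0.27), Pcyt1a (-0.44), Chpt1 (-0.57) and Lpcat3 (-0.27) lost their calls at nearly the same fold changes, on fewer residual degrees of freedom. With 4 and 3 libraries and a common biological coefficient of variation of 0.125, differences of the size of Cept1, Pcyt2 or Pemt may lie below what the design can show.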

Other observations

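Chka and some genes of its pathway differed between libraries of the same group, and the genes given here were chosen after their values were seen. Gpcpd1, which releases glycerophosphate and choline from glycerophosphocholine, had 157, 176, 77.6 and 80.1 CPM in H-TBA 1 to 4 and 104, 81.6 and 95.5 CPM in L-TBA 1 to 3. It was high in H-TBA 1 and 2, the H-TBA libraries in which Chka was low, and did not pass between the groups (edgeR adjusted p = 0.321). Lpin1, a phosphatidate phosphatase that makes diacylglycerol, had 69.2, 39.5, 27.0 and 39.5 CPM in H-TBA 1 to 4 and 28.4, 37.96 and 33.4 CPM in L-TBA 1 to 3. H-TBA 1 stood above the rest, and Lpin1 did not pass (adjusted p = 0.283).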
